A study of Mus musculus with 6 samples.

Results

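Translation initiation factors are the proteins that bring the small ribosomal subunit, the initiator tRNA and the capped messenger RNA together and set the ribosome at the start codon. Their genes were taken as all protein-coding genes whose symbol begins with Eif and a digit, without the 4 kinases of eIF2 (Eif2ak1 to Eif2ak4). This gave 51 genes of the 55416 gene identifiers in the table, of which 49 had enough reads to be tested. Messenger RNA was read in MB21 cells, a mouse medulloblastoma line whose genotype is labelled ptch mutant, so every library carries that mutation. The line was grown unattached in DMEM/F12 medium with B27 supplement. The DS38 group (3 libraries) received DS-1-38, a benzarone derivative, at 10 uM for 1 day, and the DMSO group (3 libraries) received the vehicle for 1 day. The design text of the series speaks of 5 days, whereas its title, the sample titles and the treatment protocol give 1 day. A single line was used, and nothing in the labels ties each replicate to a culture of its own; the spread that the p-values rest on may therefore be technical.

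The factors work as groups. eIF2, a trimer, carries the initiator tRNA, and eIF2B, its exchange factor, reloads it with GTP; phosphorylation of the alpha subunit of eIF2 blocks that step and is the trigger of the integrated stress response. eIF3 is a large assembly on the small ribosomal subunit. eIF4E binds the cap, eIF4G is the scaffold that joins it to the helicase eIF4A and to eIF3, and the 4E-binding proteins compete with eIF4G for eIF4E until the kinase mTORC1 phosphorylates them. Amounts are given as CPM (read counts relative to the library's total, scaled between libraries by TMM), and, where genes are set against each other, as TPM (counts per base of gene length, scaled to the same total in every library). Changes are log2 fold changes of DS38 over DMSO with their standard error (SE), and a gene is said to have risen or fallen where edgeR's quasi-likelihood test gave a Benjamini-Hochberg adjusted p under 0.05 over all 17679 genes tested. The 8 markers of the labelled tumour type were present in every library and summed to 1856 to 1889 CPM in DS38 and 1847 to 1879 CPM in DMSO, but single markers moved in both directions. Atoh1 and Barhl1 rose by 0.33 ± 0.028 and 0.27 ± 0.030 in log2, and Gli1, Ptch1, Zic1 and Zic2 fell by 0.15 ± 0.035, 0.19 ± 0.030, 0.10 ± 0.030 and 0.14 ± 0.029, whereas Pax6 and Mycn did not pass. The lists for astrocytes, oligodendrocytes, microglia, endothelium, fibroblasts and Purkinje cells summed to at most 6.38 CPM in any library, and Kdr and Calb1 had 0 counts. Among those lists the astrocyte marker Gfap rose by 0.32 ± 0.096, to a mean of 5.40 CPM in DS38 against 4.33 CPM in DMSO, and the fibroblast marker Col1a1 rose by 1.16 ± 0.330, to 0.822 CPM against 0.373 CPM in DMSO. The part of these marker changes in the results below was not tested. Library totals were 60434089 to 84044428 counts in DS38 and 38840296 to 50014681 in DMSO.

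After 1 day of DS38 the initiation factor genes changed little and in both directions. Of the 49 tested members 7 rose, where 12.9% of all genes tested rose, and 7 fell, where 11.7% of all genes fell. Together 28.6% of the members passed, close to the 24.5% of all genes that did. Those that rose were Eif4a2, Eif3f, Eif3d, Eif1, Eif2s3y, Eif3c and Eif4ebp1, and those that fell were Eif4e3, Eif4g1, Eif5b, Eif3a, Eif2s1, Eif3b and Eif4h. No tested member moved by 1.2-fold or more, a size that 25.3% of all genes tested reached. The median log2 fold change was -0.005 over the members and 0.004 over all genes tested. The median absolute log2 fold change was 0.05 over the members and 0.12 over all genes tested. The members were also read more deeply than the typical gene, with a median of 195 CPM in DMSO against 12.3 CPM over all genes tested, and a median SE of 0.030 against 0.066. In RNA from a whole culture, fewer cells of a type and less RNA per cell cannot be told apart.

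The split between the directions depended on scaling and on single libraries. With library size alone in place of TMM, 14 members rose and 4 fell, and with a correction for gene length 6 rose and 13 fell. All genes tested shifted too, from 2272 that rose and 2068 that fell. The numbers were 3289 and 1543 with library size alone, and 2155 and 2512 with the length correction. Without DMSO replicate 3 the number of members that rose was 11. It was 3 without DS38 replicate 1 and 4 without DS38 replicate 2, and 4 members fell without DS38 replicate 2 or DS38 replicate 3. Over all genes tested 1619 rose and 1554 fell without DS38 replicate 1, and 1662 and 1544 without DS38 replicate 2. The numbers were 1798 and 1672 without DS38 replicate 3, and 2396 and 2456 without DMSO replicate 3. Eif4a2, Eif3f, Eif4e3, Eif4g1, Eif5b and Eif3a passed in the same direction in all 6 analyses that left out a library and in all 11 other alternatives. In 24 of the 49 members the groups did not overlap, where 38.6% of all genes tested did so. DS38 was above DMSO in 11 of them (20.7% of all genes) and below in 13 (17.9% of all genes). Summed over all 51 members, the messenger RNA amounted to 13181, 13080.5 and 13066 TPM in DS38 and 12792, 12797 and 13186 TPM in DMSO. The DMSO replicate 3 total was as high as the highest DS38 total, so the groups overlapped.

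**Figure D1:**
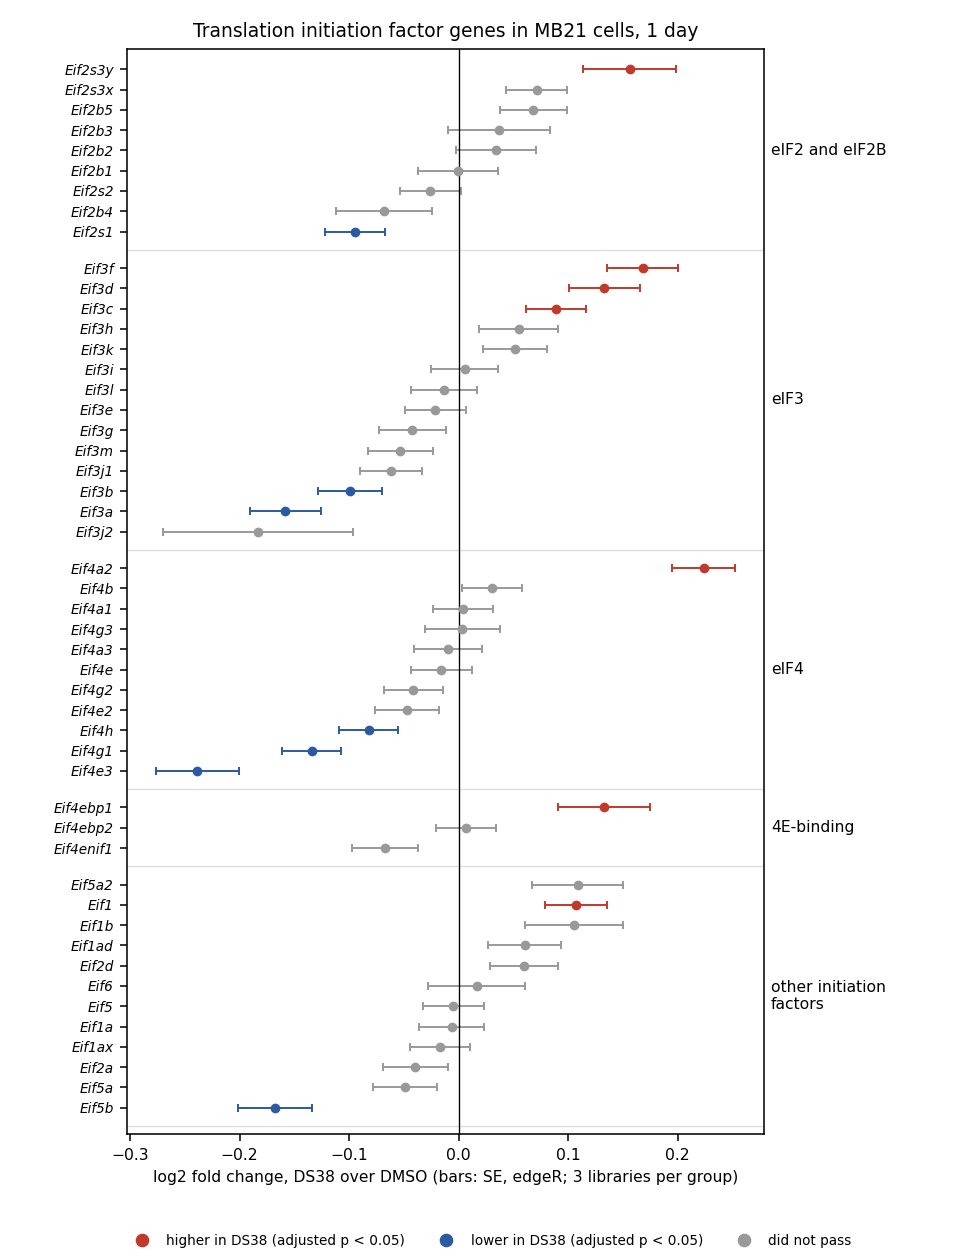
Log2 fold change of DS38 over DMSO (x axis) for the 49 tested initiation factor genes (y axis), in their functional groups, with bars for the SE; red points are higher and blue points lower in DS38 at an adjusted p under 0.05, and grey points did not pass. Eif4a2 lies farthest to the right at 0.22 and Eif4e3 farthest to the left at -0.24.

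Of the 9 tested genes of eIF2 and eIF2B 1 rose and 1 fell (11.1% in each direction), near the 12.9% and 11.7% of all genes tested. The median absolute log2 fold change was 0.07, against 0.12 over all genes tested. Eif2s1 encodes the alpha subunit of eIF2, the target of the stress kinases. It had 330.2, 329.5 and 328 CPM in DS38, against 345, 351 and 359.5 CPM in DMSO. All DS38 libraries lay below all DMSO libraries, and Eif2s1 fell by 0.095 ± 0.028 in log2 (± SE; edgeR adjusted p = 0.0139). Eif2s1 did not pass with scaling by library size alone (adjusted p = 0.107) or without any single DS38 library (adjusted p = 0.0558 to 0.0597).

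Eif2s3y, the copy of the gamma subunit gene on the Y chromosome, had 42.5, 46.1 and 44.4 CPM in DS38, against 39.2, 41.6 and 38.2 CPM in DMSO. The groups did not overlap, and Eif2s3y rose by 0.16 ± 0.042 on the log2 scale (edgeR adjusted p = 0.00903), though not without DS38 replicate 2 (adjusted p = 0.0658). Its partner on the X chromosome, Eif2s3x, had 249.6, 245 and 249.5 CPM in DS38, against 238, 231 and 239.7 CPM in DMSO. There too the DS38 libraries lay above the DMSO libraries, but the change did not pass in the fit to all libraries (0.07 ± 0.028; edgeR adjusted p = 0.0656). It passed without DMSO replicate 3 (adjusted p = 0.0345), when scaled by library size (0.00504) and by limma-voom (0.0475). Both genes were read in every library, and per base of length Eif2s3y gave 0.156, 0.172 and 0.163 in DS38, against 0.151, 0.165 and 0.146 in DMSO per unit of Eif2s3x, so that their ratio overlapped between the groups. Eif2s2, the beta subunit, had 401, 395 and 413 CPM in DS38, against 407, 408 and 415 CPM in DMSO, and its groups overlapped (log2 fold change -0.03 ± 0.028).

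The 5 subunit genes of eIF2B did not pass. Eif2b5 encodes epsilon, the catalytic subunit, and had 103, 103 and 103 CPM in DS38, against 97.4, 96.2 and 101 CPM in DMSO. Its groups did not overlap, with DS38 higher (log2 fold change 0.07 ± 0.030; edgeR adjusted p = 0.111), and it passed without DMSO replicate 3 (adjusted p = 0.0360) and with library size alone (0.0169). Eif2b1, which encodes the alpha subunit, had 44.5, 43.8 and 44.2 CPM in DS38, against 43.3, 44.2 and 45.2 CPM in DMSO. Its mean was 44.2 CPM in both groups, with an SD of 0.35 in DS38 and 0.94 in DMSO. Eif2b2, the beta subunit, had 88.6, 87.9 and 85.5 CPM in DS38, against 82.9, 82.3 and 90.98 CPM in DMSO. Eif2b3, the gamma subunit, had 42.6, 40.1 and 41.97 CPM in DS38, against 37.3, 41.2 and 43.3 CPM in DMSO. Eif2b4, the delta subunit, had 43.95, 41.9 and 42.6 CPM in DS38, against 43.9, 42.6 and 48.5 CPM in DMSO. In each of these 4 genes the groups overlapped, and DMSO replicate 3 was the highest of the 6 libraries; the edgeR adjusted p-values were 0.278 to 0.988. Per length, the eIF2B genes spanned 25.9 (Eif2b3) to 188 TPM (Eif2b2) in DS38 and 24.8 to 181 TPM in DMSO. Eif2b4 and Snx17 overlap on opposite strands, and without a known strand setting reads from the stretch they share may be counted for the wrong gene. Snx17 did not pass (log2 fold change -0.006 ± 0.036). Eif2b4 passed as lower with the length correction (adjusted p = 0.0416).

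Of the 14 tested genes of eIF3 3 rose (Eif3f, Eif3d and Eif3c) and 2 fell (Eif3a and Eif3b). These are 21.4% and 14.3% of them, where 12.9% of all genes tested rose and 11.7% fell, and the median log2 fold change was -0.02. Eif3f (ENSMUSG00000031029) encodes a subunit with an MPN domain and had 222, 215 and 219 CPM in DS38, against 189, 189.5 and 205 CPM in DMSO. DMSO replicate 3 was the highest of its group but stayed below every DS38 library, and Eif3f rose by 0.17 ± 0.032 (SE; edgeR adjusted p = 5.410e-04). Eif3d encodes the subunit known to contact the cap of selected messages, and had 138, 128 and 129.6 CPM in DS38, against 119, 119 and 124 CPM in DMSO. DS38 replicate 1 stood above the other two DS38 libraries, and without it the rise of 0.13 ± 0.032 (edgeR adjusted p = 0.0042) did not pass (adjusted p = 0.0553). Eif3c, a core subunit, had 497, 488 and 484 CPM in DS38, against 462, 453 and 467 CPM in DMSO. The groups did not overlap, and it rose by 0.09 ± 0.027 (edgeR adjusted p = 0.0202). That call was lost with the length correction (adjusted p = 0.171) and without DS38 replicate 1 (0.118), DS38 replicate 2 (0.0707) or DMSO replicate 2 (0.120).

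Eif3a (ENSMUSG00000024991) encodes the largest subunit, the scaffold of the complex. It had 817, 816 and 819 CPM in DS38, against 957, 917 and 862 CPM in DMSO. The DS38 libraries lay close together and below all DMSO libraries, which spread widely, and Eif3a fell by 0.16 ± 0.032 (SE; edgeR adjusted p = 0.00101). Eif3b, another core subunit, had 403, 394 and 389 CPM in DS38, against 420.4, 414 and 437 CPM in DMSO. It fell by 0.10 ± 0.029 (edgeR adjusted p = 0.0143), but did not pass under scaling by library size (adjusted p = 0.0934) or without DS38 replicate 2 (0.0669) or DS38 replicate 3 (0.0838). The 9 eIF3 genes that did not pass were Eif3e, Eif3g, Eif3h, Eif3i, Eif3j1, Eif3j2, Eif3k, Eif3l and Eif3m, with log2 fold changes of -0.18 (Eif3j2) to 0.05 (Eif3h). Eif3h passed as higher without DMSO replicate 3 (adjusted p = 0.0388), Eif3k as higher with library size alone (0.0285), and Eif3j1 as lower among protein-coding genes alone (0.0361). With the length correction Eif3g, Eif3j1 and Eif3m fell as well (adjusted p = 0.0361, 0.0165 and 0.00761).

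Levels of the eIF3 genes differed widely although their proteins share a complex. Per length they spanned 11.4 to 601 TPM in DS38 and 12.8 to 569 TPM in DMSO, with Eif3j2 lowest and Eif3h highest. Eif3j1 and Eif3j2 are a pair of copies of the gene for a loosely bound subunit. Per unit of Eif3j1, counts of Eif3j2 stood at 0.127, 0.148 and 0.158 in DS38, against 0.160, 0.153 and 0.158 in DMSO. Reads that match both copies may be split between them or lost, since the setting for multi-mapped reads is not given. The counts therefore do not settle how much each copy was expressed. The sum of the eIF3 genes was 3910.1, 3843 and 3825 TPM in DS38 and 3762, 3728 and 3882 TPM in DMSO, and the groups overlapped.

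Among the eIF4 genes, 1 rose (Eif4a2) and 3 fell (Eif4e3, Eif4g1 and Eif4h) of 11 tested, against 12.9% of all genes that rose and 11.7% that fell, with a median log2 fold change of -0.02. Eif4a2 (ENSMUSG00000022884) encodes a form of the helicase eIF4A that is known from neurons and that has been linked to repression by microRNAs. It had 233, 232 and 236 CPM in DS38, against 195, 207 and 198 CPM in DMSO. The DS38 libraries lay close together and above all DMSO libraries, and Eif4a2 rose by 0.22 ± 0.029 (SE; edgeR adjusted p = 7.348e-06), the smallest p of the 49 members. Eif4a1, the major form of the helicase, had 1160.4, 1152 and 1137 CPM in DS38, against 1126, 1141 and 1172 CPM in DMSO. Its groups overlapped, and the log2 fold change was 0.004 ± 0.028. Per base of length Eif4a2 amounted to 0.163, 0.164 and 0.168 in DS38, against 0.141, 0.147 and 0.137 in DMSO per unit of Eif4a1, a log2 difference of 0.22 that does not depend on scaling between libraries. Eif4a3, which encodes a core protein of the exon junction complex, had a log2 fold change of -0.01 ± 0.031. Rfc4, a replication gene, overlaps Eif4a2 on the opposite strand with 35.1% of its read number; it did not pass (log2 fold change 0.01 ± 0.035). Reads of Eif4a1 and its processed copy Eif4a-ps4, which had 9229 counts in all, may be split between them.

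Eif4e3 (ENSMUSG00000093661) encodes an unusual cap-binding relative of eIF4E. It had 54.4, 49.7 and 53.2 CPM in DS38, against 62.2, 60.9 and 62.8 CPM in DMSO, so that every DS38 library was below every DMSO library. Eif4e3 fell by 0.24 ± 0.038 (SE; edgeR adjusted p = 7.263e-05), the largest change among the 49 tested members. Eif4e, the main cap-binding protein, had 247, 244 and 249.8 CPM in DS38, against 254, 244 and 251 CPM in DMSO, with overlapping groups and a log2 fold change of -0.02 ± 0.028. Per length Eif4e3 stood at 0.526, 0.486 and 0.509 in DS38, against 0.585, 0.596 and 0.597 in DMSO per unit of Eif4e (log2 difference -0.23). Eif4e2, another relative, which represses translation by holding the cap, had 100.3, 101 and 101 CPM in DS38, against 103, 104 and 106 CPM in DMSO. Its groups did not overlap, yet it did not pass (-0.05 ± 0.029; edgeR adjusted p = 0.26). Eif4e1b, a form known from oocytes, had 3 counts in DS38 replicate 2 and 0 in the other libraries and was not tested; 0 counts in all 3 DMSO libraries allow up to 0.0772 CPM in the shallowest of them, which covers counting error only.

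Eif4g1 (ENSMUSG00000045983) encodes the scaffold eIF4GI. It had 820.4, 827 and 802 CPM in DS38, against 905, 889.9 and 894 CPM in DMSO. The groups were far apart relative to their spread, and Eif4g1 fell by 0.13 ± 0.027 (SE; edgeR adjusted p = 8.719e-04). Eif4g2 encodes a shortened relative that does not bind eIF4E, and had the highest CPM of the members, with 2401, 2366 and 2399 CPM in DS38, against 2480.3, 2473 and 2421 CPM in DMSO. Its DS38 libraries lay below the DMSO libraries, but the log2 fold change of -0.04 ± 0.027 did not pass (edgeR adjusted p = 0.278). Eif4g3, another scaffold gene, had 217, 225 and 217 CPM in DS38, against 228, 224 and 205 CPM in DMSO, overlapping between groups (0.003 ± 0.034). Per length Eif4g2 stood at 2.10, 2.06 and 2.15 in DS38, against 1.97, 2.00 and 1.95 in DMSO per unit of Eif4g1, and Eif4g3 at 0.174, 0.179 and 0.178 in DS38, against 0.166, 0.166 and 0.151 in DMSO; neither ratio overlapped between the groups. Eif4h encodes a helper of the helicase and had 347, 346 and 339 CPM in DS38, against 361, 365 and 367 CPM in DMSO. It fell by 0.08 ± 0.027 (edgeR adjusted p = 0.0291), which did not pass under scaling by library size (adjusted p = 0.190), without a filter on low counts (0.0738), with the replicate number as a block (0.0669) and without any DS38 library or DMSO replicate 2 (0.0698 to 0.139). Eif4b, the other helper, did not pass (0.03 ± 0.027), at 880.1 ± 14.6 CPM in DS38 and 862 ± 10.1 CPM in DMSO (SD, n = 3).

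**Figure D2:**
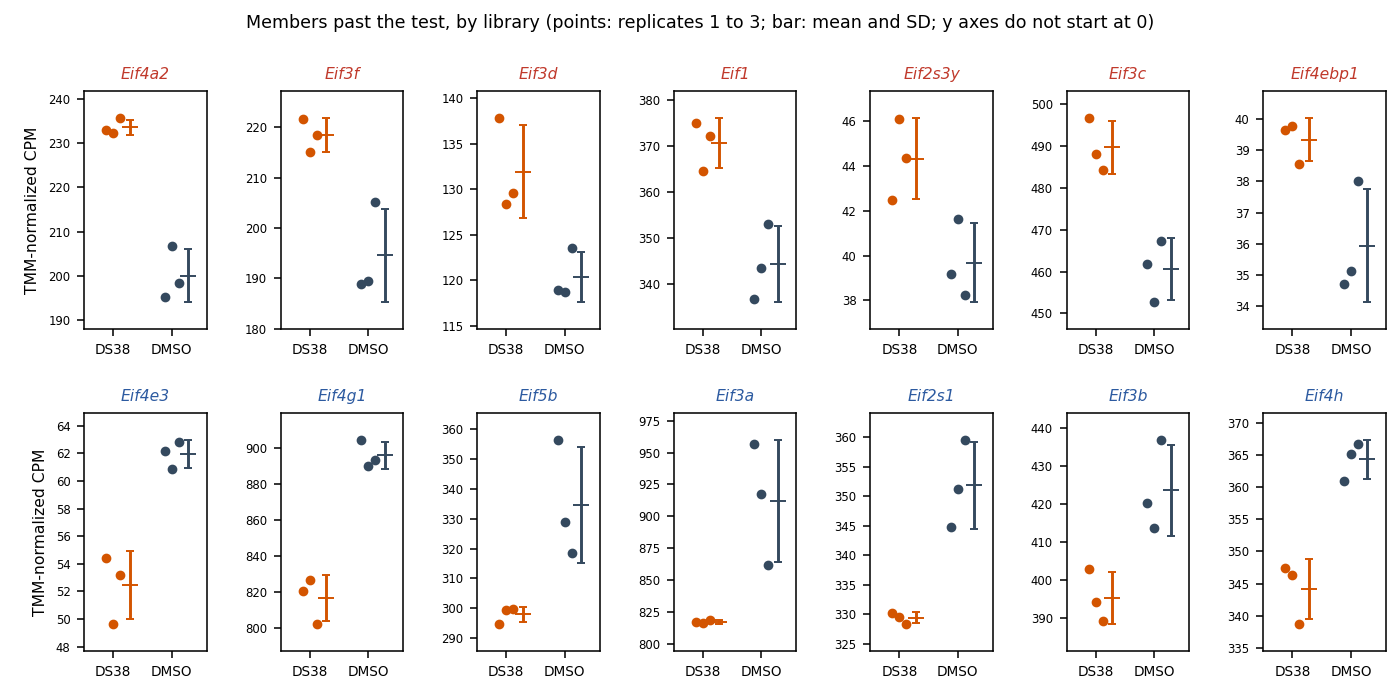
TMM-normalized CPM (y axes, which do not start at 0) of the 14 initiation factor genes past the test in each library, with DS38 left and DMSO right, and the mean and SD of 3 libraries beside the points; the upper row holds the genes that rose and the lower row those that fell. In all 14 panels the groups do not overlap, and in Eif3a and Eif5b the DMSO libraries spread more widely than the DS38 libraries.

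Of the genes for proteins that bind eIF4E and keep it from eIF4G, 1 of 3 tested rose, where 12.9% of all genes did, and 0 fell (0 also at an adjusted p under 0.05 with DESeq2; Eif4enif1 had an unadjusted p of 0.0356). Eif4ebp1, which encodes 4E-BP1 and is known as a target of the stress factor ATF4 in mouse cells, had 39.7, 39.8 and 38.6 CPM in DS38, against 34.7, 35.1 and 38.01 CPM in DMSO. DMSO replicate 3 came close to the lowest DS38 library without overlap, and Eif4ebp1 rose by 0.13 ± 0.042 (SE; edgeR adjusted p = 0.024). The call was lost with the length correction (adjusted p = 0.0832) and without DS38 replicate 1 (0.0839), DS38 replicate 2 (0.0863), DMSO replicate 1 (0.113) or DMSO replicate 2 (0.112). Eif4ebp2, the form known best from brain, had 328, 323 and 325 CPM in DS38, against 328, 324 and 319 CPM in DMSO. Its groups overlapped and its log2 fold change was 0.007 ± 0.027. Per length Eif4ebp1 stood at 0.319, 0.324 and 0.313 in DS38, against 0.278, 0.285 and 0.314 in DMSO per unit of Eif4ebp2, and DMSO replicate 3 lay within the DS38 range. Both together came to 1.82, 1.82 and 1.77 in DS38, against 1.72, 1.77 and 1.73 in DMSO per unit of Eif4e, again with an overlap.

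Eif4ebp3, the remaining 4E-BP gene, had 13, 4 and 13 counts in DS38 against 10, 21 and 3 counts in DMSO and was not tested. Its annotated span overlaps a further protein-coding gene on the same strand. That gene had 865 counts in all, against 64 for Eif4ebp3, so those few reads are uncertain and may not reflect the level of Eif4ebp3. Eif4enif1 encodes 4E-T, which carries eIF4E into the nucleus and to processing bodies, and had 154, 154 and 153 CPM in DS38, against 166, 155 and 162 CPM in DMSO. All DS38 libraries were below the DMSO libraries, but the change did not pass in the fit to all libraries (-0.07 ± 0.030; edgeR adjusted p = 0.109). It passed as lower with the length correction (adjusted p = 0.0214), among protein-coding genes alone (0.0363) and without DMSO replicate 2 (0.0441). Drg1, which overlaps it on the opposite strand, had a log2 fold change of 0.07 ± 0.031 and did not pass.

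Among the 12 remaining factors 1 rose and 1 fell (8.33% in each direction, against 12.9% and 11.7% of all genes tested), and the median log2 fold change was 0.01. Eif1 encodes the factor that guards the choice of start codon. It had 375, 365 and 372 CPM in DS38, against 337, 343 and 353 CPM in DMSO. The groups did not overlap, and Eif1 rose by 0.11 ± 0.028 (SE; edgeR adjusted p = 0.00783), though not without DS38 replicate 1 (adjusted p = 0.0561). Its relative Eif1b had 34.2, 33.5 and 33.8 CPM in DS38, against 30.1, 30.9 and 33.6 CPM in DMSO. DMSO replicate 3 fell within the DS38 range, and the log2 fold change of 0.11 ± 0.045 did not pass (edgeR adjusted p = 0.0908); it did without DMSO replicate 3 (adjusted p = 0.0141), with the length correction (0.0291) and when scaled by library size (0.0302). Eif5b (ENSMUSG00000026083) encodes the GTPase that joins the large ribosomal subunit, and had 295, 299 and 299.6 CPM in DS38, against 356, 329 and 319 CPM in DMSO. Every DS38 library was lower, and Eif5b fell by 0.17 ± 0.034 (SE; edgeR adjusted p = 8.740e-04). Rev1, which overlaps Eif5b on the opposite strand, did not pass (log2 fold change -0.06 ± 0.032).

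Eif5a, which encodes the hypusine-bearing factor that relieves stalled ribosomes, was the most abundant member per length, at 1277 ± 11.1 TPM in DS38 and 1297 ± 44.5 TPM in DMSO (SD, n = 3). It had 756, 749 and 737 CPM in DS38, against 758, 762 and 801 CPM in DMSO, with the DS38 libraries narrowly below all DMSO libraries, and did not pass (-0.05 ± 0.029; edgeR adjusted p = 0.234); with the length correction it fell (adjusted p = 0.00566). Its relative Eif5a2 was at 60.5 ± 2.32 CPM in DS38 and 56.1 ± 3.31 CPM in DMSO. The groups overlapped, and Eif5a2 passed as higher only under 4 alternatives: library size alone (adjusted p = 0.0111), no filter on low counts (0.0212), robust dispersion (0.0468) and without DMSO replicate 1 (0.0176). The other members that did not pass were Eif1ad, whose protein shares a domain with eIF1A, Eif1a and Eif1ax, which encode eIF1A, a helper in scanning for the start codon, Eif2a and Eif2d, which can deliver tRNA without eIF2, Eif5, which activates the GTPase of eIF2, and Eif6, which keeps the ribosomal subunits apart. Their log2 fold changes ranged from -0.04 (Eif2a) to 0.06 (Eif1ad). Eif1ad and Eif2d passed as higher with library size alone (adjusted p = 0.0382 and 0.0325). Genes with more reads than the member lie opposite Eif1ad (Banf1, which did not pass) and Eif2a (Serp1, which rose by 0.10 ± 0.030), and their part in the members' values was not tested.

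Ratios between related genes within a library are free of the scaling between libraries. In 4 of the 13 computed (Eif4a2 per Eif4a1, Eif4e3 per Eif4e, Eif4g2 per Eif4g1 and Eif4g3 per Eif4g1) the groups did not overlap. Among single genes 38.6% of all those tested did not overlap, and no such share was computed for ratios. The ratios of Eif4g2 and Eif4g3 share the denominator Eif4g1, which fell, so they are not separate results. The exact two-sided permutation test of the mean log2 ratio gave p = 0.1 for each of these 4 ratios. That is the smallest value that 3 against 3 libraries allow, so no ratio could pass. Adjusted over the 13 the exact p was 0.289. The log2 differences were 0.22, -0.23, 0.09 and 0.14.

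**Figure D3:**
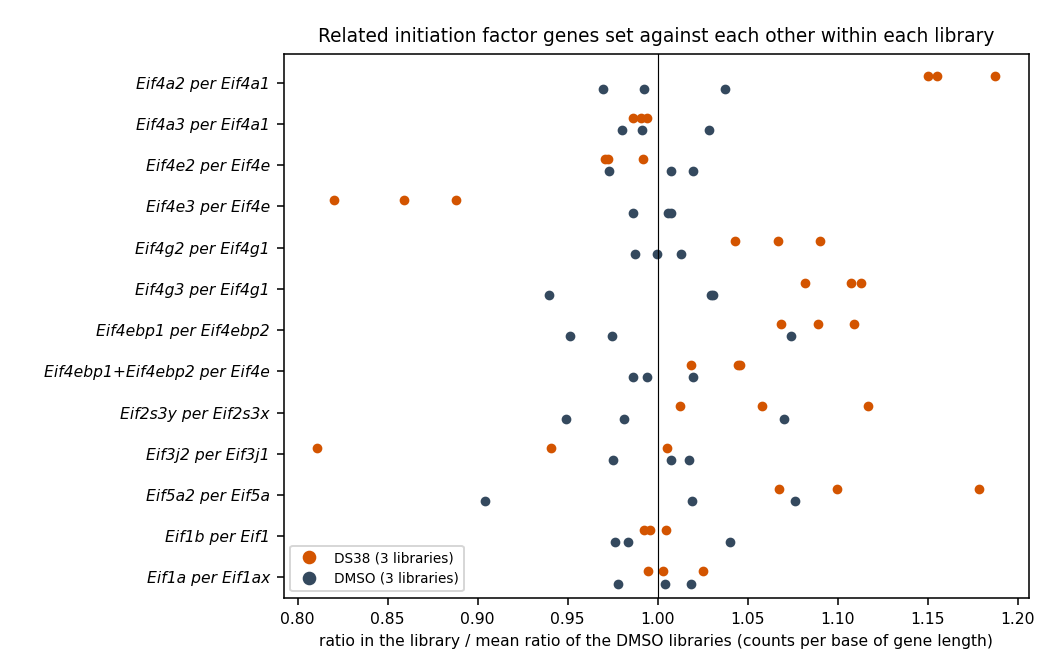
Ratio of related initiation factor genes in each library, per base of gene length, divided by the mean ratio of the DMSO libraries (x axis), for the 13 ratios named on the y axis, with DS38 above DMSO in each row. The DS38 points of Eif4a2 per Eif4a1 lie to the right and those of Eif4e3 per Eif4e to the left of all DMSO points.

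Per length the members were abundant. The 49 tested members had a median of 166 TPM in DMSO, against 14.5 TPM over all genes tested, and ran from Eif3j2 to Eif5a. By the mean of the DMSO libraries the order at the top was Eif5a, Eif4a1, Eif4g2, Eif4b and Eif1. Across the 49 members the Spearman correlation of log2 fold change and length was -0.25, against 0.05 across all genes tested. The genes that fell had a median length of 5551 bases and those that rose of 3511 bases, against 4168 bases in those that did not pass. For log2 fold change and CPM in DMSO the correlation was -0.29 across the members and -0.05 across all genes. Median CPM in DMSO was 364 in the genes that fell, 195 in those that rose and 135 in the rest. Within the 14 eIF3 genes the correlations were -0.08 with length and 0.007 with CPM. These values are descriptions, since all members share the same libraries. Small nucleolar RNA genes lie inside 5 members (Eif4a1, Eif4a2, Eif4g1, Eif4g2 and Eif5), which together went both ways.

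Promoters are shown for the members with the largest changes among those past the test, where the sequence table has an entry. Of the 49 tested members 39 had an entry in the RefSeq table of build GRCm38.p6. Among the members past the test the order by size of change was Eif4e3, Eif4a2 and Eif3f; Eif3j2, which did not pass, lay between Eif4a2 and Eif3f. The 250 bases before the start of Eif4a2 (chr16:23107218-23107467, plus strand) and Eif3f (chr7:108934165-108934414, plus strand) read 5′ to 3′ as below, with matches to the motifs searched in capitals.
Eif4a2: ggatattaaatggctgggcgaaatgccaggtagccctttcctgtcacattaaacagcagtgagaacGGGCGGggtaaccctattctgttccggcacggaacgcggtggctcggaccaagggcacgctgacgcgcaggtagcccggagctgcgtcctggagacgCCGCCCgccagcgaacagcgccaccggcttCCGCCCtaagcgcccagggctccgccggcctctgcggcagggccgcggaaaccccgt
Eif3f: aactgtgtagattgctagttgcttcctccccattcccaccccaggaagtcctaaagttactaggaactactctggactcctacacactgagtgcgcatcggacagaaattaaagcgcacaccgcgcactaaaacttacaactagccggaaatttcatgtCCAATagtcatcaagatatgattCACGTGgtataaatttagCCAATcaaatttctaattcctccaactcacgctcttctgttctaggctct
The motifs, chosen with the results known and searched on both strands, were the E-box CACGTG, the C/EBP-ATF composite TGATGNAA, the cyclic AMP element TGACGTCA, the GC box GGGCGG and the CCAAT box. The Eif4a2 window held 3 GC boxes, starting 184, 87 and 57 bases before the start, and the Eif3f window held an E-box at 68 bases between CCAAT boxes at 91 and 50 bases. No matches in these windows overlapped each other. GC boxes were in 70.6% of 51 windows of tested members, against 32.7% of 32851 windows of all genes, and E-boxes in 21.6%, against 6.02%. CCAAT boxes were in 23.5%, against 33.8%, the composite in 1.96%, against 3.45%, and the cyclic AMP element in 0 windows of members, against 1.55%. The windows of all genes were not limited to tested genes, so these shares do not set the members against the other tested genes. Some genes have several overlapping windows, and a match is a description of letters and not a bound site.

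Other genes of the pathway, taken from lists of textbook members, give the setting; 12.9% of all genes tested rose and 11.7% fell. Of the 6 genes for eIF2 kinases and phosphatase subunits 1 rose and 0 fell by edgeR (0 also by DESeq2, and 0 at an unadjusted p under 0.05). Ppp1r15a, which encodes the stress-induced subunit GADD34 that directs the phosphatase to eIF2, had 19.96, 20.3 and 19.1 CPM in DS38, against 17.9, 18.1 and 17.5 CPM in DMSO. It rose by 0.15 ± 0.051 (SE; edgeR adjusted p = 0.0392), and this call was lost with DESeq2, limma-voom, the length correction and without any single library other than DS38 replicate 3. The kinase genes Eif2ak1 to Eif2ak4 had log2 fold changes of -0.09 (Eif2ak4) to -0.003 (Eif2ak1) and did not pass.

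Of 14 regulators of the cap complex 6 rose and 2 fell (42.9% and 14.3%, against 12.9% and 11.7% of all genes tested), with a median log2 fold change of 0.03. Mknk1, a kinase that phosphorylates eIF4E, had 21.8, 21.8 and 21.9 CPM in DS38, against 16.6, 17.4 and 16.4 CPM in DMSO. The groups were far apart, and Mknk1 rose by 0.38 ± 0.050 (SE; edgeR adjusted p = 9.805e-06), more than any initiation factor gene. Its relative Mknk2 was at 74.4 ± 1.18 CPM in DS38 and 79.7 ± 4.13 CPM in DMSO and did not pass (-0.10 ± 0.036; edgeR adjusted p = 0.0507), though it passed as lower under 8 alternatives, DESeq2 among them (adjusted p = 0.0438). Pdcd4, an inhibitor of the helicase eIF4A, had 84.8, 87.3 and 86.1 CPM in DS38, against 76.3, 73.02 and 80.6 CPM in DMSO and rose by 0.17 ± 0.035 (edgeR adjusted p = 0.0012). Paip2b, which binds and restrains the poly(A)-binding protein, rose by 0.11 ± 0.029. The S6 kinase genes differed, as Rps6kb2 rose by 0.22 ± 0.057 and Rps6kb1 fell by 0.13 ± 0.032. Larp1, a binder of terminal oligopyrimidine messages, fell by 0.09 ± 0.029, and Mtor had a log2 fold change of -0.06 ± 0.036 and did not pass, except as lower without DMSO replicate 3 (adjusted p = 0.00732). Larp1 did not pass without any single library of DS38, without DMSO replicate 1 or under scaling by library size (adjusted p = 0.0677 to 0.105). The other genes that rose were Pabpc4 (0.09 ± 0.030) and Paip2 (0.08 ± 0.028), neither of which passed with DESeq2 (adjusted p = 0.0589 and 0.0653). Both calls were also lost with RLE size factors, the replicate number as a block, the length correction and protein-coding genes alone. Both were lost too without any single library other than DMSO replicate 3. Rps6kb2 did not pass without DS38 replicate 2 (adjusted p = 0.0571).

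Of 14 initiation helpers and recycling factors 0 rose and 2 fell (14.3%, against 11.7% of all genes tested). Ddx3x, a helicase that helps structured leaders, was at 957 ± 3.21 CPM in DS38 and 1051 ± 34.96 CPM in DMSO (SD, n = 3) and fell by 0.13 ± 0.029, and Nom1, a nucleolar relative of the eIF4G scaffold, fell by 0.12 ± 0.032. No helper was called higher by edgeR or DESeq2; Mcts2, with an unadjusted p of 0.0407, passed with the length correction, and Mtif3 without DMSO replicate 3. Abce1, which recycles ribosomes, had 422, 419 and 421 CPM in DS38, against 446, 439.5 and 436 CPM in DMSO. Its groups did not overlap, and it did not pass (-0.07 ± 0.027; edgeR adjusted p = 0.072), but it was called lower under 6 alternatives, among them DESeq2 (adjusted p = 0.0211) and limma-voom (0.0390). Of 9 tested elongation and termination factors 3 rose (33.3%, against 12.9% of all genes tested) and 0 fell. Eef2k, the kinase that slows elongation by phosphorylating eEF2, had 71.7, 70.1 and 73.9 CPM in DS38, against 56.3, 59.6 and 59.6 CPM in DMSO and rose by 0.30 ± 0.035 (SE; edgeR adjusted p = 2.146e-06). Its target Eef2, the translocase, rose by 0.13 ± 0.027, and Eef1g, a subunit of the exchange factor of elongation, rose by 0.18 ± 0.029. Eef1a1, which delivers tRNA to the ribosome, did not pass (0.03 ± 0.029). At an unadjusted p under 0.05, 2 genes were lower, Gspt1 and Eef1e1, and DESeq2 called Gspt1 lower (adjusted p = 0.0232). Eef1a2 and Gspt2 had 13 and 5 counts in all and were not tested.

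**Figure D4:**
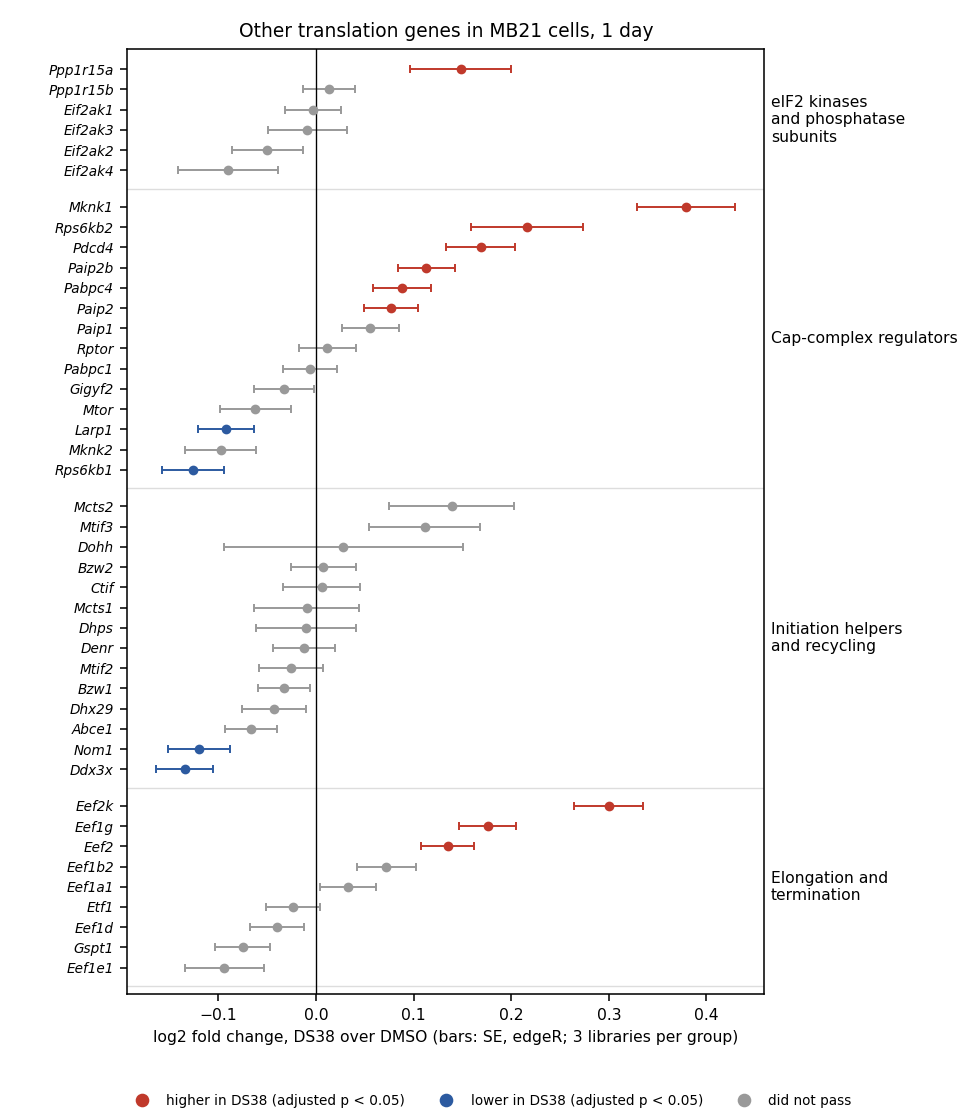
Log2 fold change of DS38 over DMSO (x axis) for the other translation genes (y axis) in 4 lists, with bars for the SE and the same colours as for the initiation factors. Mknk1 and Eef2k lie farthest to the right, at 0.38 and 0.30.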

How the data were processed

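RNA sequencing of 6 libraries (3 DS38, 3 DMSO) was analysed from whole-number read counts per gene, deposited by the authors beside each gene's length. The submitters' processing notes list, without roles, the tools edgeR, featureCounts, R 4.1.0, STAR 2.7.9a and Subread 2.0.3, and as builds GRCh38.p13 and GRCm39. For strand and multi-mapped reads, the setting is not given in the sources used here. Symbols matched 52083 of 55416 identifiers, and gene classes came from GENCODE M21 (GRCm38).

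Genes were kept by filterByExpr (minimum count 10, minimum total 15), scaled by TMM and tested with edgeR 4.0.16 in R 4.3.3 (two-sided quasi-likelihood test on group), with p-values adjusted over 17679 genes by Benjamini-Hochberg and a threshold of 0.05. The SE was taken from the fold change and its F statistic. TPM was computed from counts and deposited length. The script was tested on simulated counts with the same dispersion for every gene and in both groups, unlike these data. That test therefore does not show how reliable the calls on the members are. Within-group chi-square statistics were 2.94 to 3.63 times their degrees of freedom in DS38 pairs and 8.31 to 9.37 times in DMSO pairs. Replicates therefore differed by more than sampling noise, and DMSO replicates more than DS38 replicates. Against the DS38 libraries the statistic was 10.5 to 13.0 for DMSO replicate 3, and 24.9 to 29.7 for DMSO replicates 1 and 2. Correlations of log2 CPM with the DS38 libraries did not set DMSO replicate 3 apart. They were 0.9924 to 0.9931 for it and 0.9919 to 0.9932 for DMSO replicates 1 and 2. Over all genes tested 2272 rose and 2068 fell, and without DMSO replicate 3 the numbers were 2396 and 2456. Leaving out any other library gave fewer in each direction.

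Alternatives were DESeq2 1.42.0, limma-voom (limma 3.58.1), RLE size factors, library size alone, no filter, a block for replicate number, a stricter filter (at least 5 CPM in 3 libraries), robust dispersion, thinning to the smallest library, a length correction (lowess), protein-coding genes alone and leaving out each library. Ratios used SciPy 1.17.1 and figures matplotlib 3.10.9 in Python 3.11.15. Members, lists and motifs were chosen with earlier results of these data known. The text names all members, giving values in every library for eIF2, eIF2B and 4E-binding genes and for those past the test, and from each other list up to 3 genes of smallest adjusted p in each direction; relatives used in ratios, and others that did not pass, were added after their values were seen.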

Additional observations from a re-analysis of the deposited data

How the results depend on the processing

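No tested member changed direction in a called value under any alternative run. Over the members, library size alone gave 14 higher and 4 lower, against 7 and 7, and the length correction gave 13 lower. Over all genes library size alone gave 3289 higher and 1543 lower, against 2272 and 2068, and the length correction 2155 and 2512. The median shift in log2 fold change from the main fit over all genes was 0.035 and -0.022 under these settings. All members with a value kept their call with DESeq2, RLE size factors, the stricter filter and thinning. By subgroup, library size alone gave 3 higher and 0 lower for eIF2 and eIF2B, 1 lower for eIF3, 5 higher for the remaining factors and 1 lower for the cap-complex regulators. The length correction gave 2 lower for eIF2 and eIF2B, 5 lower for eIF3, 0 higher and 1 lower for the 4E-binding genes, 2 higher and 2 lower for the remaining factors, 0 higher for the eIF2 kinases and phosphatase subunits, 1 higher and 4 lower for the initiation helpers, and 3 lower for elongation and termination. limma-voom gave 2 higher for eIF2 and eIF2B. Without a filter, or with robust dispersion, 2 remaining factors were higher. Among protein-coding genes alone 1 of the 4E-binding genes and 2 elongation and termination genes were lower. DESeq2 and limma-voom gave 0 higher for the eIF2 kinases and phosphatase subunits. DESeq2, limma-voom, RLE size factors, the stricter filter and robust dispersion gave 1 lower for elongation and termination. Over all genes DESeq2 gave 1851 higher and 2007 lower, limma-voom 2229 and 2104, and RLE size factors 2111 and 2227. The stricter filter gave 1931 and 1918, no filter 2413 and 2031, and robust dispersion 2313 and 2074. Protein-coding genes alone gave 2039 and 2122. The causes of the differences between settings were not tested.

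Leaving out each library gave 3 to 11 members higher and 4 to 7 lower; 0 to 3 higher and 0 to 1 lower for eIF2 and eIF2B; 1 to 4 higher and 1 to 2 lower for eIF3; 0 to 1 in each direction for the 4E-binding genes; and 0 to 2 higher for the remaining factors. In the other lists the ranges were 0 to 1 higher for the eIF2 kinases and phosphatase subunits, 3 to 6 higher and 1 to 3 lower for the cap-complex regulators, 0 to 1 higher for the initiation helpers, and 0 to 1 lower for elongation and termination. Over all genes tested the ranges were 1613 to 2396 higher and 1544 to 2456 lower. The fits that leave out a library have fewer samples.

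The replicate numbers gave no sign of pairing: deviations of same-numbered libraries correlated at 0.035, -0.011 and -0.027, and not every library correlated best with its own number. With the replicate number as a block 7 members were higher and 6 lower, and the call on Eif4h was the only member call lost. Over all genes 2108 were higher and 1902 lower with that block. The tested members had at least 298 counts in every library, whereas Eif4ebp3 and Eif4e1b were too shallow to compare. Eif3j2, the tested member with the fewest counts, had an SE of 0.086, against a median SE of 0.030 over the tested members. Its log2 fold change of -0.18 did not pass, and the part of its depth in this was not tested.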
